A study of Mus musculus with 2 samples.

Results

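The 34 genes described here encode proteins that take up, carry, activate, store and oxidise fatty acids. They were chosen by name, and their reads were summed in gastrocnemius, a fast calf muscle, of male B6CASTF1/J mice aged 10 days. B6CASTF1/J is the F1 hybrid of C57BL/6J and CAST/EiJ, and reads of the parental alleles were not separated. Long-read RNA-seq was made from 2 µg of total RNA per library, for 2 libraries labelled biological replicates 1 and 2 of a single group with no treatment. The labels name separate males for them but list the same donor identifier, which was taken as one of the strain, so n = 2 means 2 libraries whose animals rest on the males named. The only comparison is replicate 1 with replicate 2, and it compares these libraries and not conditions. All 34 genes had reads in both libraries, out of 15631 annotated genes with a read in either. They held 7825 reads in 485 transcript models in replicate 1 and 7664 reads in 413 models in replicate 2.

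Fatty acids reach muscle fibres after lipoprotein lipase frees them from circulating triglyceride, and the scavenger receptor CD36 and small binding proteins carry them across the membrane and through the cytosol. Activation to acyl-CoA and transfer to carnitine let them enter mitochondria, where each round of β-oxidation runs through an acyl-CoA dehydrogenase, a hydratase, a hydroxyacyl-CoA dehydrogenase and a thiolase. What is not burned is esterified to triglyceride and kept in droplets coated by perilipins, from which lipases release it again. In mice around this age, milk supplies much of the energy as fat.

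Replicate 1 had 1172413 reads, of which 1145490 were mouse reads, and replicate 2 had 957529, of which 941841 were mouse reads. Levels are given in CPM, the reads of a gene per 1000000 mouse reads. A count of 3 reads, the floor used here, is 2.62 CPM in replicate 1, against 3.19 CPM in replicate 2. One long read stands for one cDNA molecule, so levels of different genes were not divided by length, although long transcripts may give fewer complete reads. The 8 muscle fibre markers summed to 274515 and 268357 CPM in replicates 1 and 2, and all 8 were listed. These sums hide shifts in both directions. By the exact binomial test, 4 were higher and 4 lower in replicate 1 at an adjusted p under 0.05. Myh4, which also passed 2-fold, had 23388 CPM in replicate 1, against 8871 CPM in replicate 2. Myh1 had 7757 and 4016 CPM, while Tnnc2 had 14850 and 21256 CPM. Whether the fibre make-up of the libraries differed was not tested. Between the libraries, longer transcripts were relatively more abundant in replicate 1. The median log2 ratio of replicate 1 over 2 was -0.35 in the shortest of 10 length classes and 0.30 in the longest. Only genes whose summed count reached 100 reads entered these class medians. The labels cite version 3.1 of the analysis pipeline document for replicate 1 and 3.0 for replicate 2, so a difference of library and one of pipeline version cannot be told apart.

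The sequences of the alternative exons and of the promoter stretches that the results turn on are given first. Hadha and Hadhb encode the subunits of the mitochondrial trifunctional protein and lie head to head on chromosome 5, Hadha on the minus strand and Hadhb on the plus strand. Their GENCODE M21 starts are separated by 85 bases (GRCm38, chr5:30155163-30155247), read here on the plus strand from the RefSeq promoter table, with matches to the GC box GGGCGG in capitals.
Hadha to Hadhb: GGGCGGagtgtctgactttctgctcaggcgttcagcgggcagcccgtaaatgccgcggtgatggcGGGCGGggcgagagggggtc
Acadvl, the very-long-chain acyl-CoA dehydrogenase gene, has a 66-nt coding exon that some reads skip (GRCm38, chr11:70014793-70014858, minus strand). The exon is in capitals, between 9 bases of each neighbouring exon of GENCODE transcript Acadvl-202.
Acadvl exon: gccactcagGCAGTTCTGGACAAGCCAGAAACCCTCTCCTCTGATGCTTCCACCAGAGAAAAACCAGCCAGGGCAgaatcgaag
In Plin2, which encodes a lipid droplet coat protein, many reads left the usual last exon early, at a splice donor inside the coding sequence. The 24 coding bases of Plin2-201 before that donor (GRCm38, chr4:86657114-86657137, minus strand) are shown because the coding frame was followed from here.
Plin2 before the donor: aacaacacgcctctcaactggctg
Acadm was the member whose promoter window held AAGGTCA, the extended half-site known from oestrogen-related receptors. The stretch (RefSeq, GRCm38.p6, chr3:153944856-153944893, minus strand) has the match in capitals, as its reverse complement.
Acadm promoter: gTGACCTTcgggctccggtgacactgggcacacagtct

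RefSeq promoter windows, 250 bases before to 50 after a start, were found for 24 of the 34 genes. For 23 of them the window nearest to the main model's start was used. The distance to that start was 200 bases for Cd36, 182 for Hadha and 143 for Fabp3, and at most 96 for the others. Most of the Hadha window thus lies inside the first exon of Hadha-205. For Plin4, which had no annotated main model, the single window of the table was used. GGGCGG on either strand occurred in 18 of 24 windows (75.0%), against 35.9% of 32544 windows of all genes. The windows of all genes are every distinct window, not 1 per gene, and were not limited to genes with reads here. The sets are therefore unlike. The Hadha and Hadhb windows share 228 bases, so the same stretch is counted for both genes. The members' windows were also richer in G and C, with a median of 61.8% against 53.0%. TATAAA occurred in 0 of the 24 windows, against 13.6% of all windows. The nuclear receptor half-site AGGTCA occurred in 7 windows (29.2%), against 16.2% of all windows. Its extended form AAGGTCA, which contains AGGTCA, was in 1 member window (4.17%) and in 4.71% of all windows. The repeat AGGTCANAGGTCA, to which PPAR-RXR pairs are known to bind, was in 0 member windows and in 0.0399% of all windows. These are matches of letters in short windows and not measured binding.

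Together the 34 genes reached 6831 CPM in replicate 1, against 8137 CPM in replicate 2, a mean of 7484 ± 924 CPM (SD, n = 2, as for every mean ± SD that follows). The 16 genes of the oxidation steps inside mitochondria held 64.1% ± 0.15 of the members' reads. The 9 genes of desaturation, triglyceride synthesis, droplet coat and lipolysis held 6.44% ± 0.85. In a whole muscle, fewer cells of a type and less RNA per cell cannot be told apart.

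**Figure D1:**
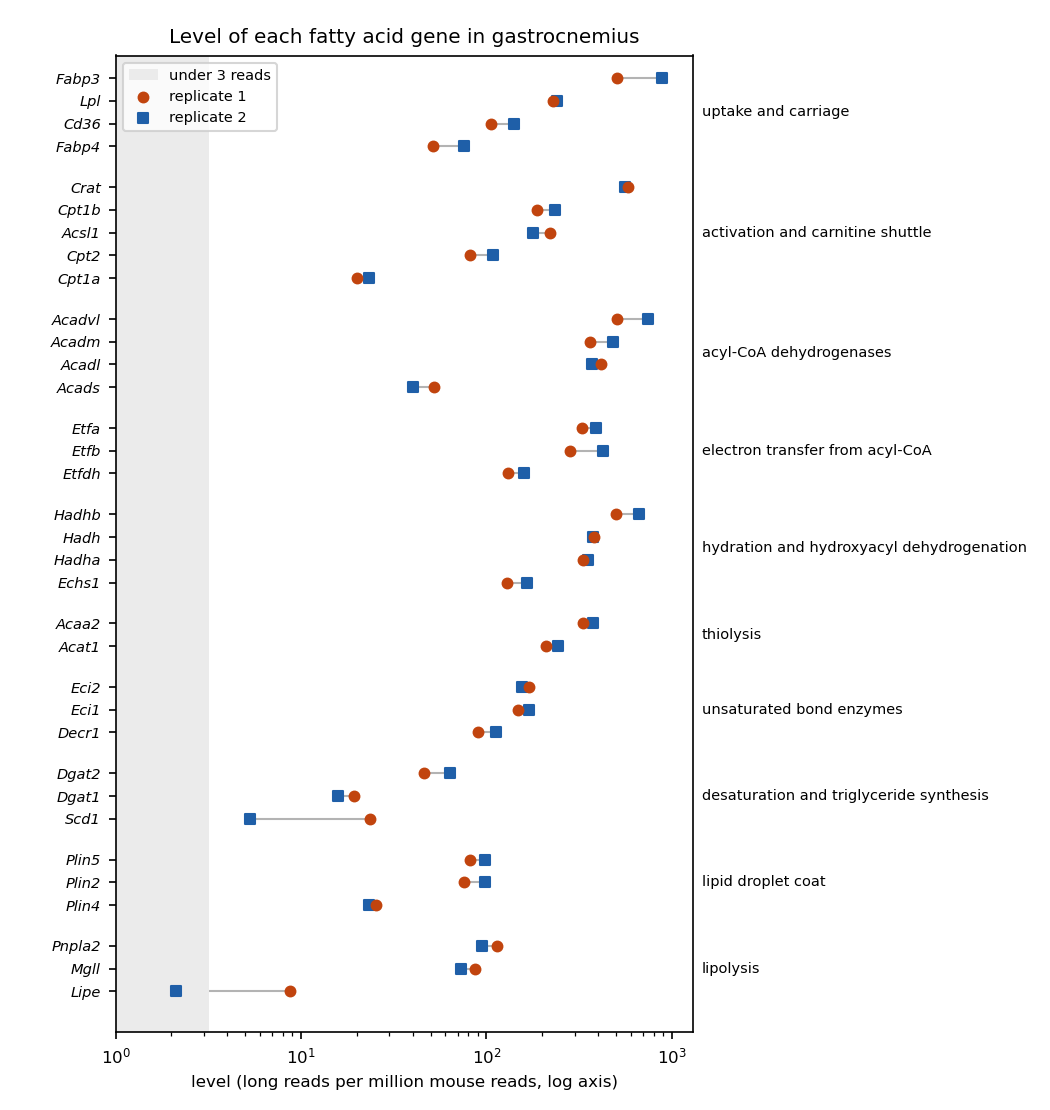
Level of each of the 34 genes in replicate 1 (circles) and replicate 2 (squares), in CPM on a log axis, grouped by step; the grey band is under 3 reads. Most genes of oxidation sit above 100 CPM, and Scd1 and Lipe have the widest gaps between replicates.

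Uptake and carriage summed to 893 CPM in replicate 1, against 1337 CPM in replicate 2. Fabp3, the heart and muscle fatty acid binding protein gene, had the highest mean of the members, at 505 CPM in replicate 1, against 881 CPM in replicate 2, and stood at percentile 99.3 of all genes. In replicate 1 alone Crat and Acadvl were above it. Its adipocyte and endothelial relative Fabp4 had 51.5 and 75.4 CPM in replicates 1 and 2, so Fabp3 gave 91.4% ± 0.97 of the reads of the pair. Most Fabp4 reads were in incomplete models, and without incomplete and genomic models its mean level was 22.4 CPM in place of 63.4 CPM. Lpl, the secreted lipase, was close in the replicates, at 230 and 239 CPM. Cd36, the fatty acid receptor, had 107 CPM in replicate 1, against 141 CPM in replicate 2.

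Fat cells and capillary cells also use several of these genes. The 10 adipocyte markers summed to 48.9 CPM in replicate 1, against 71.1 CPM in replicate 2, with 8 of 10 listed and Retn and Ucp1 at 0 in both. Adipoq, the adiponectin gene, had 4 and 6 reads, and the fat cell droplet gene Plin1 had 1 read in each library. Cfd had 14 and 18 reads, Pparg 13 and 16, Cidec 11 and 17 and Cidea 11 and 6. Lep had 2 reads in each library, and Adrb3 had 0 and 1. The 10 endothelial markers were all listed and summed to 581 CPM in replicate 1, against 504 CPM in replicate 2, and the 8 macrophage markers summed to 155 and 135 CPM. The part of these cells in the levels of Fabp4, Lpl, Cd36 and the storage genes was not tested.

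Activation and the carnitine shuttle summed to 1087 CPM in replicate 1, against 1103 CPM in replicate 2. Crat, the carnitine acetyltransferase that buffers acetyl-CoA, led the step with 577 and 560 CPM. Acsl1, the main long-chain acyl-CoA synthetase of muscle, had 221 CPM in replicate 1, against 177 CPM in replicate 2. Cpt1b, the muscle form of the outer-membrane carnitine palmitoyltransferase, had 187 and 235 CPM, and the liver form Cpt1a had 20.1 and 23.4 CPM. Cpt1b thus gave 90.3% of the reads of the pair in replicate 1 and 90.9% in replicate 2. Cpt2, which rebuilds acyl-CoA on the matrix side, had 82.1 and 108 CPM.

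The acyl-CoA dehydrogenases, which open each round of oxidation, formed the step with the highest mean sum, 1337 CPM in replicate 1, against 1638 CPM in replicate 2. In replicate 1 alone the hydration and hydroxyacyl step was slightly higher, at 1343 CPM. Acadvl, for very long chains, had 508 and 745 CPM. Acadm, for medium chains, had 361 CPM in replicate 1, against 483 CPM in replicate 2, and Acadl, for long chains, had 416 and 369 CPM. The short-chain enzyme gene Acads was lowest, at 52.4 and 40.3 CPM. Of the reads of these 4 genes, Acadvl gave 41.7% ± 5.3, Acadm 28.3% ± 1.7, Acadl 26.8% ± 6.0 and Acads 3.19% ± 1.0. The order of Acadm and Acadl was not the same in the replicates: Acadl was above Acadm in replicate 1 and below it in replicate 2.

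Electron transfer flavoprotein takes the electrons from these dehydrogenases to the respiratory chain. Its subunit genes Etfa and Etfb had 329 and 283 CPM in replicate 1, and 392 and 424 CPM in replicate 2. Etfa gave 50.9% ± 4.1 of the reads of the pair. Etfdh, the membrane dehydrogenase that accepts the electrons, had 131 and 159 CPM in replicates 1 and 2.

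Hydration and the hydroxyacyl step summed to 1343 CPM in replicate 1, against 1557 CPM in replicate 2. Hadhb, the thiolase subunit of the trifunctional protein, had 499 and 666 CPM, and Hadha, the subunit with the hydratase and dehydrogenase activities, had 333 and 351 CPM. Of the reads of this head-to-head pair, Hadha gave 37.3% ± 3.8. Their main transcripts differ in length, 4017 nt for Hadha-205 and 2033 nt for Hadhb-201, and the part of length in this share was not tested. Hadh, the short-chain hydroxyacyl-CoA dehydrogenase gene, had 382 and 374 CPM, and the short-chain hydratase gene Echs1 had 128 and 166 CPM.

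Beside Hadhb, thiolysis was represented by Acaa2, the mitochondrial 3-ketoacyl-CoA thiolase gene, with 331 CPM in replicate 1, against 375 CPM in replicate 2, and by Acat1, the acetoacetyl-CoA thiolase gene, with 209 and 242 CPM. Hadhb was counted with its partner Hadha in the hydration and hydroxyacyl step. Counted under thiolysis, a grouping added after seeing the data, it brings that step to 1161 ± 172 CPM and leaves 867 ± 34 CPM for hydration and the hydroxyacyl step, which reverses their order. Unsaturated chains need extra enzymes that move or remove double bonds. The isomerase genes Eci1 and Eci2 had 148 and 170 CPM in replicate 1, and 169 and 155 CPM in replicate 2. Eci1 gave 49.3% ± 4.0 of the reads of the pair. Decr1, the dienoyl-CoA reductase gene, had 89.9 and 113 CPM in replicates 1 and 2.

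The storage genes were lower. Of the acyltransferases that complete triglyceride, Dgat2 had 46.3 CPM in replicate 1, against 63.7 CPM in replicate 2, and Dgat1 had 19.2 and 15.9 CPM. Scd1, the desaturase that makes oleate, had 23.6 CPM in replicate 1, against 5.31 CPM in replicate 2. Among the droplet coat genes, Plin5, which tethers droplets to mitochondria, and Plin2 were alike, at 82.1 and 76.0 CPM in replicate 1 and 97.7 and 98.7 CPM in replicate 2. Plin4 had 25.3 and 23.4 CPM, with a mean of 8.20 CPM without incomplete and genomic models and 0 CPM among annotated transcripts.

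Lipolysis runs in sequence from triglyceride to glycerol. Pnpla2, the adipose triglyceride lipase gene that starts it, had 113 CPM in replicate 1, against 94.5 CPM in replicate 2. Lipe, the hormone-sensitive lipase gene that follows, had 10 reads in replicate 1 and 2 in replicate 2, the second of which is under the floor of 3 reads. Mgll, the monoglyceride lipase gene, had 86.4 and 73.3 CPM, with a mean of 49.9 CPM without incomplete and genomic models.

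**Figure D2:**
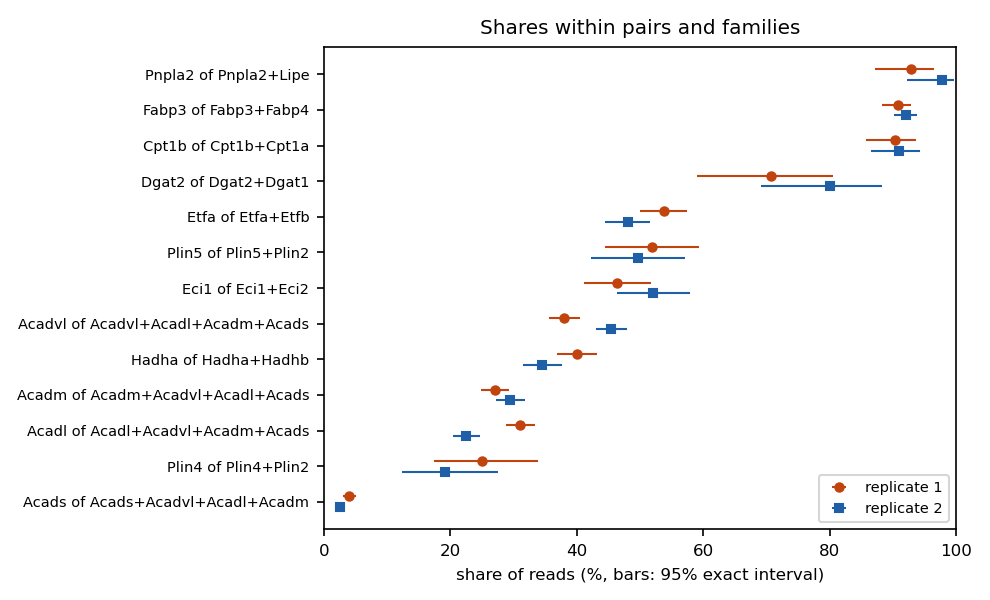
Share of reads (%) held by one gene of a pair or family in replicate 1 (circles) and replicate 2 (squares), with 95% exact binomial intervals that cover counting error only. Cpt1b, Fabp3 and Pnpla2 hold over 90% of their pairs, while Etfa, Plin5 and Eci1 lie near equal shares.

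Replicates 1 and 2 were compared gene by gene with a two-sided exact binomial test on the read counts, adjusted by Benjamini-Hochberg over 7655 genes with 20 or more reads in the sum of both libraries. With 1 library per animal, these p-values set a difference against counting error only and not against a spread between animals. Of the members, 33 were tested and Lipe was not. One member passed both an adjusted p of 0.05 and 2-fold, against 4.62% of all genes. That gene was Scd1, with 27 reads in replicate 1 and 5 in replicate 2 (log2 ratio 2.04, adjusted p = 0.00788, exact binomial test). It was not tested when the minimum was 100 reads, since it had fewer. Among annotated transcripts alone, with fewer reads, its log2 ratio was 2.12 and did not pass (adjusted p = 0.0629, exact binomial test).

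At any fold, 6 of 33 members passed the adjusted p, against 11.3% of all genes, and 5 of these were lower in replicate 1, against 5.77% of all genes. The 5 were Fabp3 (log2 ratio -0.80), Etfb (-0.58), Acadvl (-0.55), Acadm (-0.42) and Hadhb (-0.41). By the exact binomial test, the adjusted p was 4.62e-23 for Fabp3 and 3.78e-04 for Acadm, the smallest and the largest of the 5. Over all tested members, 22 were lower and 11 higher in replicate 1, and the median log2 ratio was -0.22, against 0.01 over all genes. An unadjusted p under 0.05 by the same exact test was reached by 12 members (36.4%), against 21.8% of all genes. At higher read counts this test passes smaller differences, and the shares of genes passing were not compared at like read counts. The median absolute log2 ratio was 0.28 over the members, against 0.35 over all genes.

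Transcript length moved with these ratios. Over the 33 members, the log2 ratio and the read-weighted mean model length had a Spearman correlation of 0.36, and over all 7655 genes one of 0.34, described across genes that share the same libraries. Scaled within 10 length classes, an alternative chosen after seeing the data, Fabp3 had a log2 ratio of -0.45 and still passed. Etfb was at -0.23 and no longer passed (adjusted p = 0.19, exact binomial test). Acadvl, Acadm and Hadhb still passed, at -0.46, -0.32 and -0.32, and Acadl passed in the other direction at 0.30. Under this scaling Scd1 was at 1.83 (adjusted p = 0.0279, exact binomial test). Members below 0 again numbered 22 and those above 0 numbered 11. The member median was -0.20, against 0.04 over all genes. Before this scaling, 8 of 12 mitochondrial reference genes outside the list were lower in replicate 1, against 5.77% of all genes, and 1 was higher. These counts are at an adjusted p under 0.05 by the same exact test. Values within length classes are not given for these 12 genes. In replicate 1 they had from 430 (Idh2) to 5351 reads (Atp5b), counts at which the test passes small differences.

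**Figure D3:**
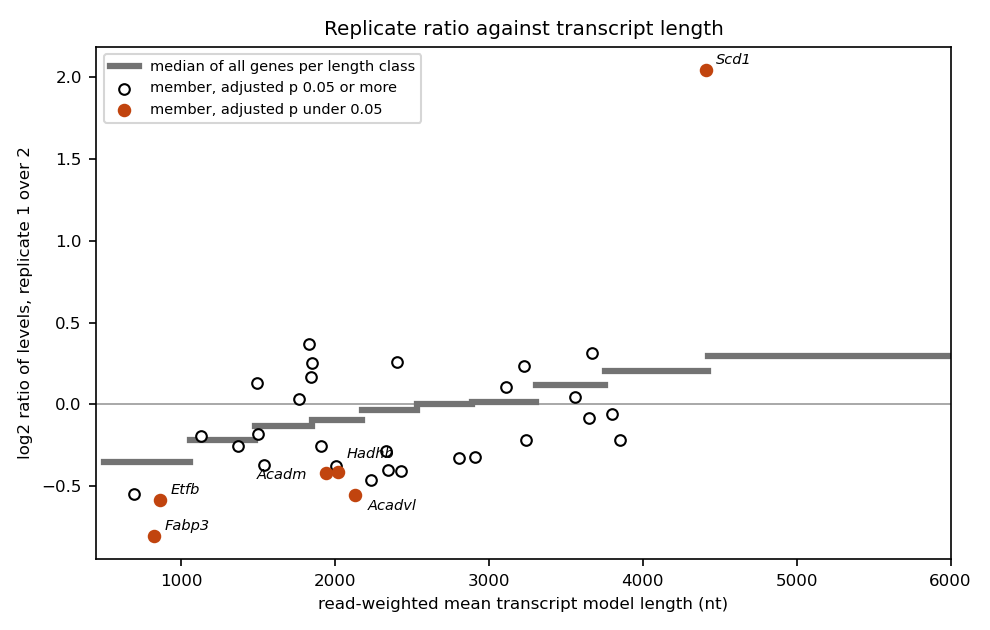
Log2 ratio of replicate 1 over replicate 2 for the 33 tested members against the read-weighted mean length of their transcript models (nt). Grey bars are medians of 10 length classes, taken only from genes whose summed count reached 100 reads. The class medians climb with length from -0.35 to 0.30; filled points passed an adjusted p of 0.05.

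Further genes of the pathway, outside the 34, were counted by list. Among 27 other oxidation genes, Pdk2 and Pdk4, kinases that hold back pyruvate oxidation, averaged 712 ± 2.7 and 492 ± 110 CPM. Ech1, a dienoyl-CoA isomerase gene, averaged 245 ± 54 CPM. Mlycd, which removes malonyl-CoA, averaged 239 ± 10.0 CPM, and Scp2, of peroxisomal oxidation and lipid transfer, 212 ± 35 CPM. Of the 23 genes tested in this list, 6 were lower and 1 higher in replicate 1 at an adjusted p under 0.05 by the exact binomial test. Past 2-fold, Acacb, which makes malonyl-CoA at mitochondria, was higher in replicate 1 (47 and 8 reads, log2 ratio 2.20), and Pecr was lower (23 and 42 reads, log2 ratio -1.14).

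Among 18 other uptake and activation genes, Dbi, the acyl-CoA binding protein gene, averaged 166 ± 45 CPM. Next were Acot13, a thioesterase gene, at 84.1 ± 31 CPM, and the transporter gene Slc27a1 at 56.0 ± 14 CPM. Acot9 averaged 40.0 ± 11 CPM, Angptl4, an inhibitor of lipoprotein lipase, 38.6 ± 3.5 CPM, and Gpihbp1, its capillary anchor, 33.7 ± 9.4 CPM. Of 15 tested, 2 were lower in replicate 1 at the adjusted p, and 0 passed 2-fold.

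Of 32 other storage and lipolysis genes, 2 were at 0 in both libraries, Mogat1 and Scd4. Fitm1, a droplet formation gene of muscle, led with 365 ± 48 CPM, above every storage member. Agpat3 and Gpam, acyltransferase genes of glycerolipid synthesis, averaged 236 ± 44 and 112 ± 44 CPM. Pnpla8 averaged 97.4 ± 1.9 CPM, Acly, which makes cytosolic acetyl-CoA, 70.5 ± 6.5 CPM and Fitm2 52.9 ± 4.2 CPM. Of 20 tested, 2 were higher in replicate 1 at the adjusted p and 0 passed 2-fold.

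Of 16 regulators, Esrra, an oestrogen-related receptor gene, was highest at 70.1 ± 16 CPM. Rxrg and Rxra, partners of PPARs, averaged 45.4 ± 22 and 33.9 ± 22 CPM, and both were called higher in replicate 1 (log2 ratios 1.02 and 1.43, adjusted p = 0.0132 and 0.00162, exact binomial test). Lpin1 averaged 44.2 ± 12 CPM, the mitochondrial deacylase gene Sirt3 33.1 ± 1.2 CPM and Prkaa2, a catalytic subunit gene of AMP-activated kinase, 32.9 ± 2.9 CPM.

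Each read was assigned by the authors to a transcript model with a class. Of the members' reads, 86.9% ± 1.2 matched an annotated transcript, against 74.3% ± 3.0 of the reads of all annotated genes. Unannotated spliced models held 5.09% ± 0.79 of member reads, against 15.6% ± 2.1 for all annotated genes. Incomplete models, which lack exons at an end, held 7.07% ± 0.03, against 8.23% ± 0.84. Genomic models, which overlap introns or lie unspliced in a gene, held 0.91% ± 0.36, against 1.87% ± 0.05. These shares pool reads and so follow the abundant genes. With each member weighted equally, incomplete models held 11.1% and genomic ones 2.84%, both above the members' pooled shares. Equally weighted shares of all annotated genes are not given here, so members and all genes were not compared in that way.

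The classes varied among the 31 members with 20 or more reads in each library. Fabp3 was the most complete, with 98.2% ± 0.14 in its annotated transcript, and 19 members had over 80% in their main model. At the other end, 67.1% of Fabp4 reads were incomplete, mostly in models of 2 or 3 exons that lacked the first exon. Plin4 had 0% in annotated transcripts, and 44.0% ± 8.5 of its reads were single-exon genomic ones. Across 30 members, the incomplete plus genomic share and the main model's length had a Spearman correlation of 0.44.

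**Figure D4:**
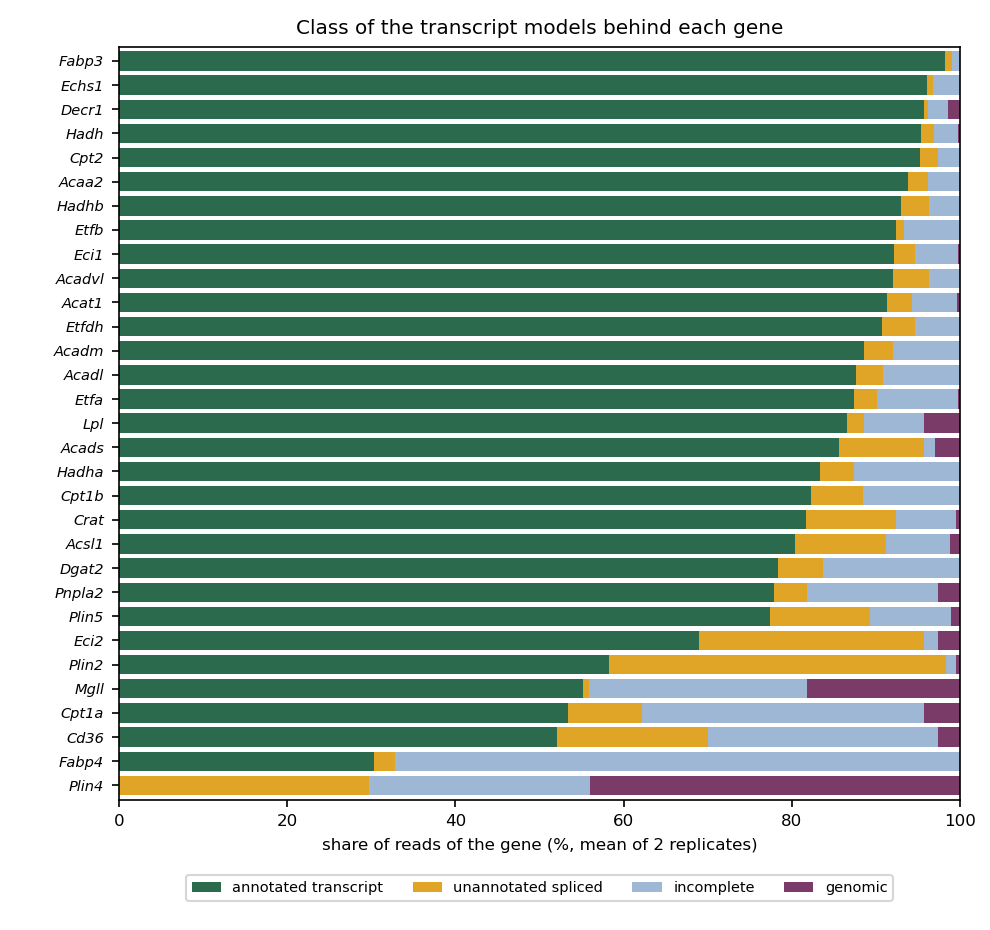
Share of each gene's reads (%, mean of 2 replicates) in annotated, unannotated spliced, incomplete and genomic transcript models, for the 31 members with 20 or more reads in each library. Plin4 has no annotated share, Fabp4 is mostly incomplete, and Plin2, Plin4 and Eci2 have the widest unannotated spliced shares.

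Shares of transcript models were compared between replicates with Fisher's exact test over 70756 models, and 2 of 661 member models were called, against 0.148% of all models. Both belonged to Mgll and held its single-exon reads, classed genomic in replicate 1, with 36 reads, and incomplete in replicate 2, with 25 reads. The lengths given for them were 2528 and 2710 nt, and whether they are the same model was not tested. With unspliced models pooled per gene, an alternative chosen after seeing the data, the pooled share in Mgll was 36.4% in replicate 1, against 36.2% in replicate 2. No member was called in that setting.

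Internal exons with both choices above 5% were compared in the same way. None of the 3 member exons was called by Fisher's exact test, against 0.175% of 1713 exons; 0 had an unadjusted p under 0.05. The Acadvl exon printed above was kept in 519 of 557 spanning reads (93.2%) in replicate 1 and in 644 of 676 (95.3%) in replicate 2. Its length is a multiple of 3, so skipping it leaves the reading frame. A 54-nt noncoding exon of Cd36 (chr5:17835618-17835671) was kept in 46.9% of 32 reads in replicate 1 and 55.9% of 34 reads in replicate 2. Its bases are also the end of the first exon of Cd36-201, which uses the same donor. In replicates 1 and 2, 60 and 50 complete reads had their first intron at that donor and are not among these spanning reads. The shares are therefore not those of all Cd36 reads. In Plin2, the 291-nt form of the exon that ends at the inner donor was used as an internal exon in 30 of 36 reads in replicate 1 and 32 of 33 in replicate 2.

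First and last introns were compared with Fisher's exact test over 5639 choices, and none of 38 in members was called, against 0.567% of all; 4 of the 38 had an unadjusted p under 0.05. The shares that follow are of complete reads, which leave out incomplete and genomic models. Incomplete models by definition lack exons at an end, and genomic ones overlap introns or lie unspliced in a gene. The second starts of Dgat2 and Etfb had 0 reads without these models.

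In Plin2, 42.4% of 85 complete reads in replicate 1 and 35.9% of 92 in replicate 2 ended in a last exon 8534 bases beyond the inner donor. These shares count the last exon whichever donor led to it. Of the reads spanning the exon with the inner donor, 30 of 36 kept it in replicate 1 and 32 of 33 in replicate 2. GENCODE M21 has the distant last exon only in Plin2-208, a short processed transcript with no coding sequence. An unannotated model of 9 exons, 2170 nt long, joined that last exon to the full body of the gene. It held 32.2% ± 1.6 of Plin2 reads (27 and 31 reads), against 58.2% ± 5.9 for Plin2-201. Followed from the start codon of Plin2-201, the frame of that join keeps 399 of its 425 codons, loses the last 26, and reaches a stop after 26 other codons in the downstream exon. The 81 bases after the join that hold these codons and the stop match in 24 positions, so the tails are different sequences of equal length. The reading comes from reference letters, and no protein was measured.

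Acsl1 was started from 2 first exons, both noncoding, whose donors lay 19931 bases apart. The upstream one, of Acsl1-201, had 70.5% of 227 complete reads in replicate 1 and 68.2% of 154 in replicate 2, and the downstream one, of Acsl1-203, had 21.6% and 27.9%. GENCODE gives both transcripts the same coding length of 2097 bases. Hadhb used 2 donors of its first exon 43 bases apart, next to the head-to-head region. The nearer one, of Hadhb-201, had 66.1% of 551 reads in replicate 1 and 60.9% of 604 in replicate 2, and that of Hadhb-203 had 29.4% and 35.6%. Both first exons are noncoding.

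Eci2 divided its complete reads between donors 184 bases apart. The one of Eci2-211 had 64.0% of 186 reads in replicate 1 and 66.4% of 140 in replicate 2, and the one of Eci2-201 had 36.0% and 33.6%. Eci2-211 has 44 coding bases in its first exon and Eci2-201 has 0, but Eci2-213, which shares the donor of Eci2-211, also has 0 and the same coding length of 1074 bases as Eci2-201. Eci2-213 held 18 and 8 reads, so the donor alone does not set the coding sequence. Eci2 was spread over models more than most members: Eci2-211 held 40.3% ± 4.0, Eci2-201 21.3% ± 1.1 and an unannotated 10-exon model 13.5% ± 0.26 of its reads.

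Mgll used first exons whose donors lay 607 bases apart. The upstream one had 67.8% of 59 complete reads in replicate 1 and 75.0% of 36 in replicate 2. The downstream start, of Mgll-207, which has 28 coding bases in its first exon, had 32.2% and 16.7%. Plin5 used the first exon of Plin5-201 in 81.2% of 85 complete reads in replicate 1 and 79.0% of 81 in replicate 2, and that of Plin5-202 in 18.8% and 19.8%. Cd36 had 3 noncoding first exons whose donors were spread over 53093 bases. The one nearest to the coding exons gave 65.2% of 92 complete reads in replicate 1 and 58.1% of 86 in replicate 2. The middle one gave 21.7% and 20.9%, and the most distant one 10.9% and 17.4%. Crat, Lpl, Hadha, Acadl, Acadm, Etfa, Etfb, Cpt1b and Pnpla2 had over 93% of complete reads at 1 first intron in both libraries. Leaving out incomplete models raises these shares. Over all spliced reads each was lower, down to 82.7% and 90.5% for Cpt1b and 87.0% and 81.6% for Pnpla2 in replicates 1 and 2.

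**Figure D5:**
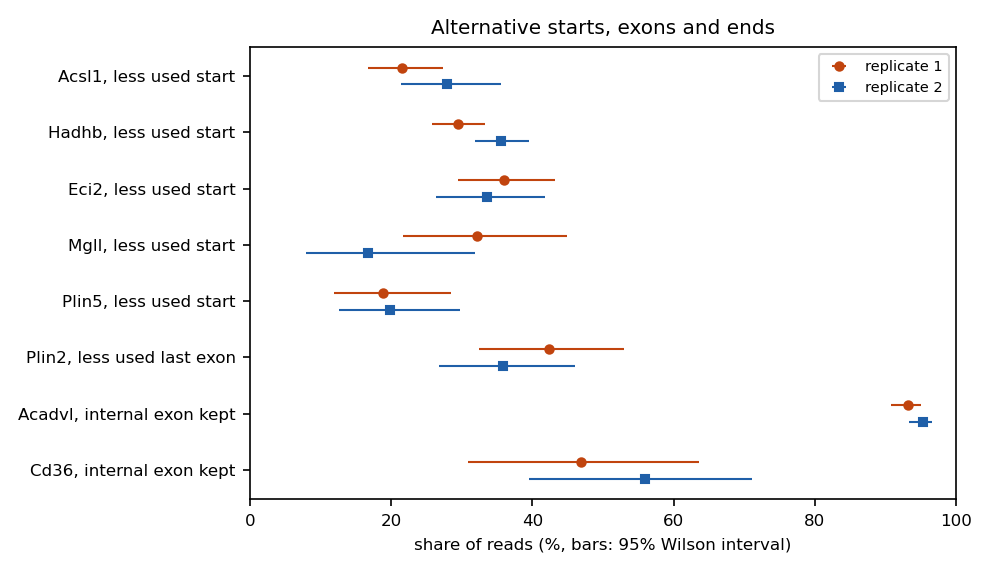
Share of reads (%) at the second most used start or last exon of 6 genes, from complete reads, and share keeping an internal exon of Acadvl and Cd36, in replicate 1 (circles) and replicate 2 (squares), with 95% Wilson intervals. The intervals of the replicates overlap in every case shown.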

How the data were processed

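The deposited tables hold raw read counts per transcript model of each library, made by the authors from long reads on mm10 with GENCODE M21, per the deposited README files; their model classes are TALON attributes, per the file headers. The aligner and its version are not named in the labels or headers read here. Spike-in reads were left out and counts were summed per gene and model. Members, steps and the other lists were chosen with earlier results of these data known; all members are named, other genes at 10 CPM or more up to 6 per list or when called, and models at 10% of reads; 1 gene of the other lists that the rule names is not reported here. Genes were tested with exact binomial tests and shares with Fisher's exact test (scipy 1.17.1), with log2 ratios after adding 0.5 reads. A gene call needed an adjusted p under 0.05 and 2-fold, and a share call 10 percentage points and 20 reads per library. edgeR 4.0.16 and DESeq2 1.42.0 supplied alternative scalings only. Both tests were checked on simulated data. Intervals and the 3-read floor cover counting error only.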

Additional observations from a re-analysis of the deposited data

How the results depend on the processing

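Gene calls numbered 76 with a minimum of 100 reads, 168 with annotated transcripts only and 867 at any fold, with 0, 0 and 6 members called. Scaling within length classes, chosen after seeing the data, gave 272 calls. With annotated transcripts only, the log2 ratios of Cd36, Lpl and Hadha turned positive, at 0.0589, 0.0915 and 0.0312, and within length classes that of Eci1 turned to 0.0229 and that of Crat to -0.0758; all had an adjusted p above 0.05 by the exact binomial test, before and after. Without incomplete and genomic models there were 25 transcript share calls, and 36 with unspliced models pooled, each with 0 members, and 20 first and last intron calls, against 56 with a minimum of 50 reads. TMM and DESeq2 scaling moved no member's call.
With annotated transcripts only, sums rescaled to annotated reads were 8914 CPM for all members, 1235 for activation and carnitine shuttle, 1826 for acyl-CoA dehydrogenases, 1058 for electron transfer, 1820 for hydration and hydroxyacyl dehydrogenation, 735 for thiolysis, 487 for unsaturated bond enzymes, 90.5 for desaturation and triglyceride synthesis and 165 for droplet coat. Leaving out incomplete and genomic models gave 1110 for the carnitine shuttle step, 447 for unsaturated bonds, 81.7 for desaturation and triglyceride synthesis and 151 for lipolysis; counting Hadhb under thiolysis, added after seeing the data, gave 1161 for thiolysis and 867 for hydration and hydroxyacyl dehydrogenation, and keeping spike-ins in the library size gave 1073.5 for the shuttle step. Among annotated transcripts, pair shares were 93.7% for Cpt1b, 97.2% for Fabp3, 56.5% for Eci1, 0% for Plin4 and 57.8% for Plin5; without incomplete and genomic models they were 93.2% for Cpt1b, 96.9% for Fabp3, 8.27% for Plin4 and 48.4% for Plin5. With each member weighted equally, 78.7% of reads were annotated, 7.32% unannotated spliced, 11.1% incomplete and 2.84% genomic. The cause of these shifts was not tested.
No paired analysis was possible because the libraries form 1 group. Genes under 20 reads and exons with few spanning reads, as in Cd36 and Plin2, are limited by depth.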
